A study of Mus musculus with 18 samples.

Results

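The genes of de novo purine synthesis were followed in L929 cells, a line of mouse fibroblasts, by RNA-seq. They were taken by gene name from the deposited table, which holds 57180 genes, and the 9 names Ppat, Gart, Pfas, Paics, Adsl, Atic, Impdh1, Impdh2 and Gmps each matched 1 row. All 9 passed the filter on low counts, which left 14263 genes for testing. The study asked how a shortage of aspartate alters the response of cells to DNA in the cytosol. The 6 groups had 3 libraries each, from independent cultures of wild-type cells. Mock cells carried the treatment label DMSO. AOA (aminooxyacetic acid, an inhibitor of aminotransferases, a class that includes the enzymes that make aspartate) was used at 0.5 mM and was given 1 h ahead of the DNA. AOA+Asp cells received the inhibitor together with 20 mM aspartate. HT-DNA (herring testis DNA, which activates the DNA sensor cGAS once it is inside the cell) was transfected with Lipofectamine 2000 at 0.5 μg/ml for 6 h, alone or together with AOA (HT-DNA+AOA) or with AOA and aspartate (HT-DNA+AOA+Asp). No group received aspartate without AOA, and whether the groups without HT-DNA received the transfection reagent is not given in the sources used here. L929 is 1 established line, so the replicates speak for that line alone.

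Purine nucleotides are built step by step on a ribose phosphate, phosphoribosyl pyrophosphate (PRPP), until inosine monophosphate (IMP) is complete. Glutamine, glycine, formyl groups carried by folate, and aspartate supply the atoms of the ring. Aspartate enters by a pair of reactions, in which it is first joined to the intermediate and its carbon skeleton then leaves as fumarate, so that only its nitrogen stays. The same pair of reactions is used again when IMP is turned into AMP, and a separate branch turns IMP into GMP. Proliferating cells such as cultured fibroblasts depend on this route in addition to the salvage of ready-made bases.

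The 9 genes cover the route from PRPP to IMP and its guanine branch. Ppat (ENSMUSG00000029246) encodes the amidotransferase of the committed step. Gart (ENSMUSG00000022962) encodes a trifunctional enzyme of the early steps that includes a formyl transfer, and Pfas (ENSMUSG00000020899) encodes the synthase that adds a nitrogen from glutamine. Paics (ENSMUSG00000029247) encodes the bifunctional enzyme that joins aspartate to the growing ring. Adsl (ENSMUSG00000022407) encodes adenylosuccinate lyase, which releases fumarate both on the way to IMP and on the way to AMP. Atic (ENSMUSG00000026192) encodes the bifunctional enzyme that adds the last formyl group and closes the ring. Impdh1 (ENSMUSG00000003500) and Impdh2 (ENSMUSG00000062867) encode the IMP dehydrogenases that open the guanine branch, and Gmps (ENSMUSG00000027823) encodes GMP synthetase.

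Promoter sequence was available from RefSeq (build GRCm38.p6) for 8 of the 9 genes, all but Pfas, as windows from 250 bases before the start of transcription to 50 bases after it. The E-box CACGTG, the motif bound by Myc with its partner Max, reads the same on both strands. It was present in the windows of Paics, Atic and Impdh2 and in 7.15% of 32851 windows over all genes. The sequences around it in these 3 genes are shown, with the E-box in capitals and 12 bases on either side.

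Paics (chr5:76951087-76951116, plus strand): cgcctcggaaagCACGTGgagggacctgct
Atic (chr1:71557137-71557166, plus strand): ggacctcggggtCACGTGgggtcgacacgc
Impdh2 (chr9:108560314-108560343, plus strand): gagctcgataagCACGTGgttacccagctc

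The E-box began 203 bases before the RefSeq start of Paics, 110 bases before that of Impdh2 and 7 bases before that of Atic. In the GENCODE vM21 annotation of the same build, the 30 bases shown for Paics lie in an exon of Ppat on the opposite strand, those for Impdh2 lie in an exon of Impdh2 itself, and 17 of those for Atic lie in its first exon. Adsl, the gene of the route with the largest changes with AOA alone and with aspartate added to AOA, had no E-box in its window. Its upstream 250 bases, which no exon overlaps, are shown for their pair of GC boxes (GGGCGG on one strand and CCGCCC on the other, in capitals).

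Adsl (chr15:80948240-80948489, plus strand): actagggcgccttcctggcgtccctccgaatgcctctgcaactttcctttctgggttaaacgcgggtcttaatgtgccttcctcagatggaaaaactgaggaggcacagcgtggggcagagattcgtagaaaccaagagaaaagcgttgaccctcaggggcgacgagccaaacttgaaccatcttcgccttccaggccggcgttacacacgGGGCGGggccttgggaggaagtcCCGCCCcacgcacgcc

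A GC box on either strand was found in the windows of all 8 genes and in 35.7% of all windows. The amino acid response motif TGATGNAA, searched on both strands, was in none of the 8 genes' windows and in 3.97% of all windows. These matches describe the letters in the windows and were not tested against the expression values.

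Libraries held 17901580 to 24057322 counts, and the 9 genes had 1286 to 8910 counts in each library. Levels below are in CPM, the counts of a gene relative to the library total after scaling by the trimmed mean of M values (TMM). Over all genes, replicates differed by more than counting error in every group (chi-square per degree of freedom 2.78 to 67.0), most in HT-DNA+AOA, where replicate 3 also had the lowest TMM factor (0.918). The fibroblast markers summed to 5116 to 7218 CPM per library with Thy1 at 0 in 6 libraries. The leukocyte markers Ptprc, Adgre1 and Cd3e were at 0 in all 18 libraries while Cd68 was at 110.0 to 155 CPM. Epithelial markers summed to at most 1.11 CPM and endothelial markers to at most 0.836 CPM. Ifit1, an interferon-stimulated gene, reached at most 0.427 CPM in the groups without HT-DNA and at least 58.4 CPM in those with it. In such bulk RNA, a lower level in each cell and a smaller share of expressing cells cannot be told apart. Aspartate was present in the 2 groups with the highest shares of mitochondrially encoded mRNA (3.07% to 3.43% of counts, against 2.54% to 2.997% in the other groups), and its part in the results was not tested.

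In Mock cells the most abundant of the 9 transcripts, per kilobase of the longest coding transcript, was Impdh2 at 144 ± 0.668 CPM per kb (SD, n = 3). Atic (82.7 ± 3.17 CPM per kb) and Paics (82.2 ± 1.16 CPM per kb) followed, and their libraries overlapped. Impdh1 (46.9 ± 0.475 CPM per kb), Gart (37.0 ± 1.07 CPM per kb), Adsl (24.4 ± 0.983 CPM per kb), Ppat (19.9 ± 1.01 CPM per kb), Gmps (14.1 ± 0.447 CPM per kb) and Pfas (11.3 ± 0.550 CPM per kb) came next without overlap between neighbours. The enzyme of the committed step was thus among the less abundant transcripts, and Impdh2 stood above its paralog Impdh1 in every group. The sum of the 9 genes was 1316 ± 17.9 CPM in Mock, 1556 ± 21.9 CPM in AOA, 1360.0 ± 46.6 CPM in AOA+Asp, 1622 ± 21.6 CPM in HT-DNA, 1563 ± 109 CPM in HT-DNA+AOA and 1457 ± 16.6 CPM in HT-DNA+AOA+Asp.

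**Figure D1:**
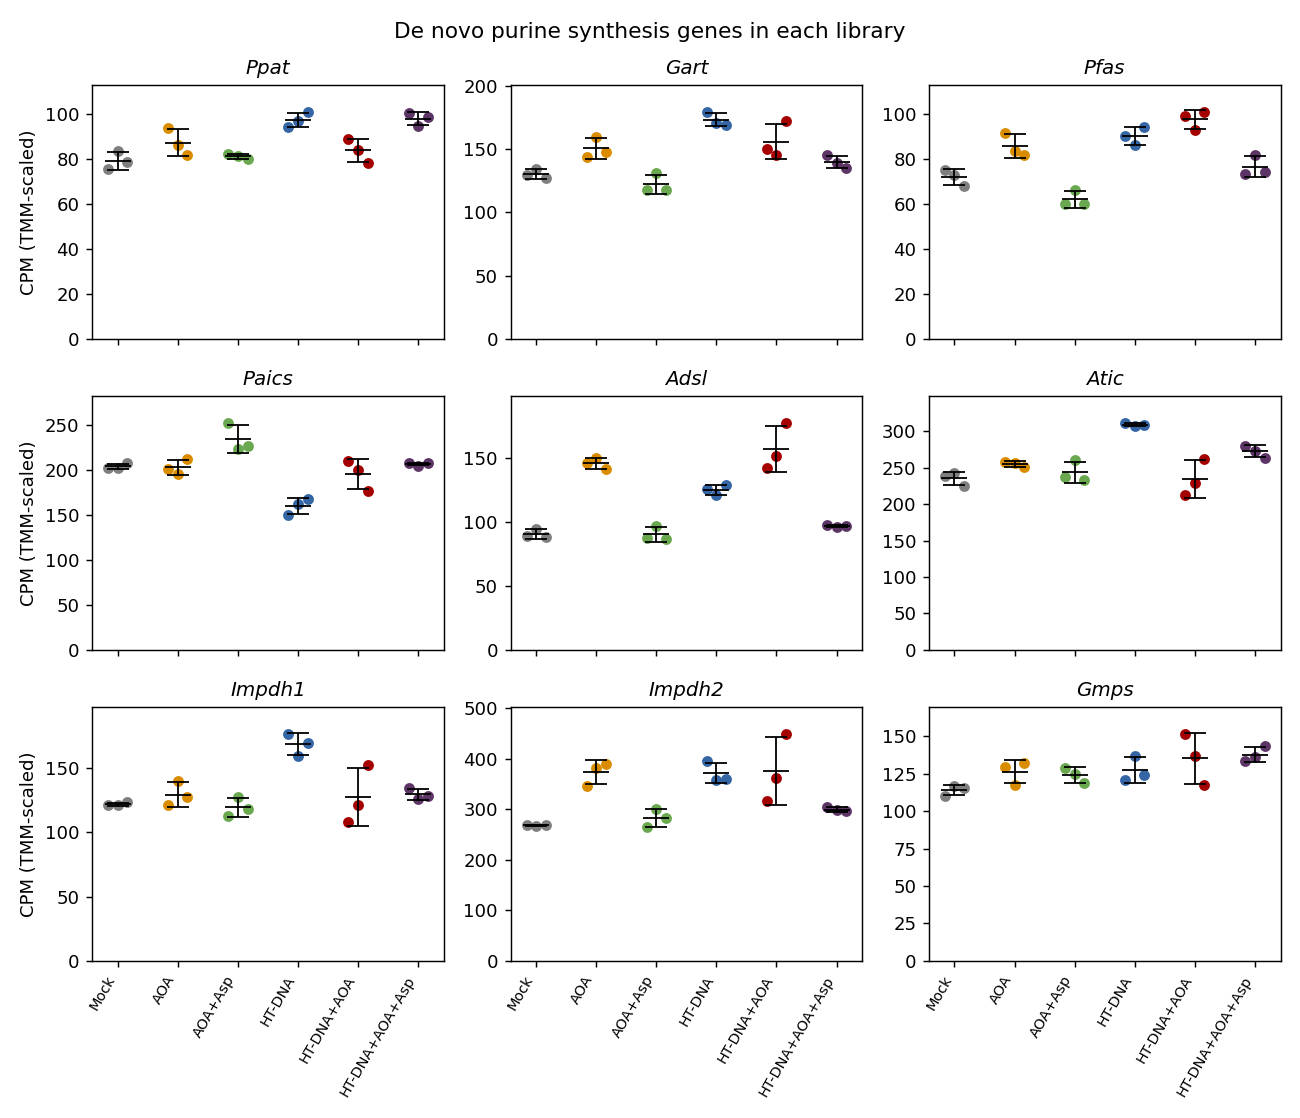
CPM of the 9 genes in each of the 18 libraries (points, by group on the horizontal axis), with the mean and SD of the 3 libraries of a group (bars). Every vertical axis starts at 0. Adsl and Impdh2 are high in AOA and return near Mock in AOA+Asp, Paics is lowest in HT-DNA, and the HT-DNA+AOA libraries of Atic, Impdh1 and Impdh2 are spread widely.

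AOA raised 4 of the 9 genes and lowered none. The largest rise was that of Adsl, the lyase that releases fumarate from both aspartate-derived intermediates, followed by Impdh2, Pfas and Gart. Adsl was at 88.8, 94.6 and 87.9 CPM in the 3 Mock libraries and at 146, 150.2 and 142 CPM in the 3 AOA libraries. The groups were far apart, a 1.61-fold difference (log2 fold change 0.69 ± 0.074 SE, adjusted p = 5.45e-07, edgeR quasi-likelihood test with Benjamini-Hochberg adjustment, as throughout). Impdh2, the IMP dehydrogenase gene with the higher transcript level, was at 269, 267 and 268 CPM in Mock and at 346, 383 and 390.3 CPM in AOA. All AOA libraries were above all Mock libraries (log2 fold change 0.48 ± 0.093, adjusted p = 0.000394).

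The rises of the glutamine-using synthase Pfas and of Gart were smaller. Pfas was at 75.02, 72.8 and 68.2 CPM in Mock and at 91.9, 83.8 and 81.8 CPM in AOA (log2 fold change 0.25 ± 0.071, adjusted p = 0.0070). Gart was at 129.5, 134 and 127 CPM in Mock and at 144, 159.6 and 148 CPM in AOA (log2 fold change 0.21 ± 0.070, adjusted p = 0.0207). Neither gene's groups overlapped. The other 5 genes did not pass the test.

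Of those 5, Ppat was at 75.6, 83.6 and 78.8 CPM in Mock and at 93.9, 86.3 and 81.9 CPM in AOA (log2 fold change 0.14 ± 0.067, adjusted p = 0.0975). Paics, the enzyme that takes up aspartate, was at 202, 203 and 207 CPM in Mock and at 201, 195 and 212 CPM in AOA (log2 fold change -0.01 ± 0.070, adjusted p = 0.914). Its AOA libraries lay on both sides of the Mock libraries. Atic, Impdh1 and Gmps had log2 fold changes of 0.12 ± 0.070, 0.09 ± 0.094 and 0.15 ± 0.082.

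Across all genes tested, 45.7% were called between AOA and Mock (22.5% higher and 23.2% lower), so the 4 of 9 called here were near the background, while none of the 9 was called lower. The groups did not overlap for 6 of the 9 genes and for 59.4% of all genes. The median log2 fold change was 0.15 over the 9 genes and 0.02 over all genes tested. With library totals in place of TMM, the median of all genes moved to -0.12 in this comparison and also in that of HT-DNA with Mock, and Pfas (0.12) and Gart (0.08) were no longer called. A correction that removed each library's trend of level against GC content and transcript length brought Ppat (0.24) and Gmps (0.49) past the threshold, and Gart was lost when Mock replicate 1 or 3 or AOA replicate 2 was left out.

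Aspartate was added back to ask which of these changes depended on it. Adding it to AOA lowered Adsl, Pfas, Impdh2 and Gart, which AOA had raised, and raised Paics. The comparison shares its AOA libraries with the one above, so the opposite signs are not independent. Adsl was at 87.7, 97.1 and 86.5 CPM in AOA+Asp, below every AOA library (log2 fold change -0.69 ± 0.074, adjusted p = 6.54e-07) and across the Mock range. Impdh2 was at 265, 301 and 283 CPM (log2 fold change -0.40 ± 0.093, adjusted p = 0.00188). Pfas was at 59.996, 66.5 and 60.1 CPM (log2 fold change -0.47 ± 0.072, adjusted p = 3.91e-05). These 3 genes had no overlap between AOA+Asp and AOA, and Pfas was below all Mock libraries as well.

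Gart was at 118, 131 and 118 CPM in AOA+Asp (log2 fold change against AOA -0.30 ± 0.070, adjusted p = 0.00182). Paics moved the other way and was at 252, 223 and 226 CPM, above every AOA library (log2 fold change 0.21 ± 0.070, adjusted p = 0.0210). Ppat was at 82.5, 81.4 and 79.9 CPM, within the span of the Mock libraries and overlapping those of AOA (log2 fold change -0.10 ± 0.067). Ppat, Atic, Impdh1 and Gmps did not pass the test, with log2 fold changes from -0.12 to -0.03. Of all genes, 46.3% were called in this comparison (23.4% higher and 22.8% lower) and 56.8% did not overlap, against 5 of the 9 genes by either count. The call of Paics was lost without AOA replicate 1 or 2 or AOA+Asp replicate 1. With trends in GC content and length removed, Gmps (-0.57) and Ppat (-0.29) were also called lower, and the value of Impdh2 fell from -0.40 to -0.22.

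Between AOA+Asp and Mock none of the 9 genes was called by edgeR, 2 had an unadjusted p under 0.05 (Pfas, log2 fold change -0.21 ± 0.072, and Paics, 0.20 ± 0.070), and DESeq2 called both of these. Adsl, at 90.4 ± 3.65 CPM in Mock and 90.4 ± 5.79 CPM in AOA+Asp (SD, n = 3 each), differed by less than the spread between replicates. The background was 6.47% of all genes called and 32.7% not overlapping, against 3 of the 9 genes not overlapping (Pfas, Paics and Gmps). Because no culture received aspartate alone, an effect of aspartate and a reversal of AOA cannot be told apart here.

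**Figure D2:**
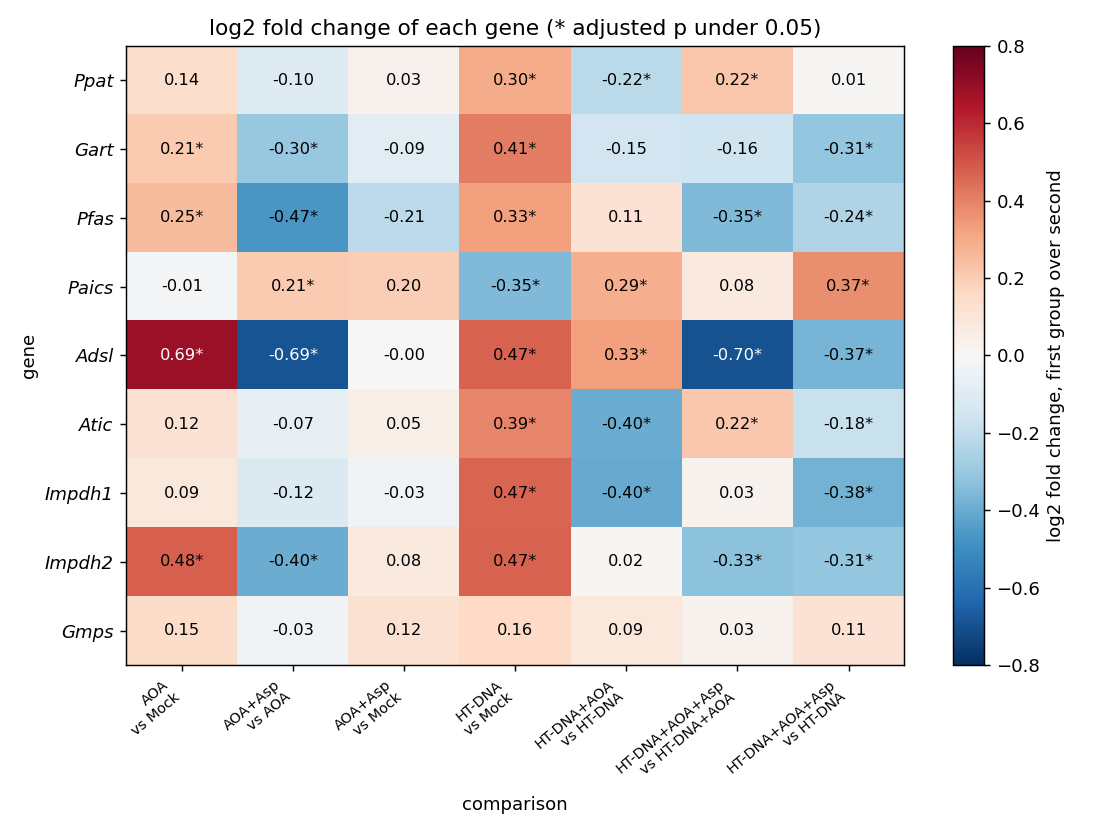
Log2 fold change of each of the 9 genes (rows) in the 7 comparisons of groups (columns), first group over second, with red higher and blue lower. Asterisks mark an adjusted p under 0.05. Adsl has the strongest values in the first 2 columns, and HT-DNA with Mock is the column with most calls, 7 higher and 1 lower.

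HT-DNA alone changed 8 of the 9 genes. Ppat, Gart, Pfas, Adsl, Atic, Impdh1 and Impdh2 rose by 1.23-fold to 1.39-fold, and Paics fell to 0.78 of its Mock level. Ppat, the amidotransferase of the committed step, was at 94.5, 97.1 and 101.0 CPM in HT-DNA (log2 fold change 0.30 ± 0.067, adjusted p = 0.00156). Gart was at 179, 171 and 169 CPM (log2 fold change 0.41 ± 0.070, adjusted p = 0.000173). Pfas was at 90.5, 86.3 and 94.3 CPM (log2 fold change 0.33 ± 0.071, adjusted p = 0.00119). For all 3 genes of the early steps, each HT-DNA library was above each Mock library.

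Paics was at 150.1, 162 and 167 CPM in HT-DNA, below every Mock library (log2 fold change -0.35 ± 0.070, adjusted p = 0.000595). Its neighbour in the pathway, Adsl, was higher than in Mock at 126, 121 and 129 CPM (log2 fold change 0.47 ± 0.074, adjusted p = 7.93e-05). The genes whose products join aspartate to the ring and split fumarate off again thus went in opposite directions. Atic, which completes IMP, was at 238, 242 and 225 CPM in Mock and at 311, 307 and 308 CPM in HT-DNA (log2 fold change 0.39 ± 0.070, adjusted p = 0.000260).

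In the guanine branch, Impdh1 was at 121, 121 and 123 CPM in Mock and at 177, 159.8 and 169.8 CPM in HT-DNA (log2 fold change 0.47 ± 0.094, adjusted p = 0.000659). Impdh2 was at 395, 359 and 361 CPM in HT-DNA (log2 fold change 0.47 ± 0.093, adjusted p = 0.000573). Gmps was at 110.1, 117 and 115 CPM in Mock and at 121, 137 and 124 CPM in HT-DNA, without overlap but not called (log2 fold change 0.16 ± 0.082, adjusted p = 0.119).

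All 9 genes had no overlap between HT-DNA and Mock, against 61.3% of all genes, and 48.2% of all genes were called (24.2% higher and 24.01% lower). The median log2 fold change was 0.39 over the 9 genes and -0.01 over all genes tested. The count stayed at 8 whichever 1 library was left out, and with library totals Ppat (0.19) and Pfas (0.22) had smaller rises and were still called. Correcting for GC content and length moved Impdh1 from 0.47 to 0.13, Impdh2 from 0.47 to 0.24, Ppat from 0.30 to 0.60 and Gmps from 0.16 to 0.66. The signs were as before, and Gmps was then called as well. The share of all genes called under this correction is not given here. Of the 9 genes, Impdh1 has the highest GC content (58.9%) and Gmps the lowest (39.0%) and the longest transcript (8105 bases).

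When AOA was given before HT-DNA, the genes divided. Compared with HT-DNA alone, Adsl and Paics were higher, Impdh1, Atic and Ppat were lower, and the other 4 genes were not called. Adsl was at 142, 151 and 177 CPM in HT-DNA+AOA, above each HT-DNA library (log2 fold change 0.33 ± 0.073, adjusted p = 0.00128). Paics was at 209, 200.1 and 176 CPM, also above each HT-DNA library and overlapping the Mock range (log2 fold change 0.29 ± 0.070, adjusted p = 0.00234).

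Atic was at 212, 229 and 263 CPM in HT-DNA+AOA, below the HT-DNA libraries (log2 fold change -0.40 ± 0.071, adjusted p = 0.000135). Impdh1 was at 108, 122 and 153 CPM (log2 fold change -0.40 ± 0.094, adjusted p = 0.00166). Ppat was at 89.0, 84.3 and 78.4 CPM (log2 fold change -0.22 ± 0.067, adjusted p = 0.0128). Atic and Impdh1 thus lay at or near their Mock levels and did not overlap with HT-DNA.

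Impdh2 ran from 317 through 362 to 449 CPM across the 3 HT-DNA+AOA libraries, and its mean of 376 CPM was close to the 371 CPM of HT-DNA (log2 fold change 0.02 ± 0.093, adjusted p = 0.900). Pfas was at 99.4, 93.1 and 101.0 CPM (log2 fold change 0.11 ± 0.071), Gart at 150.2, 145 and 172 CPM (-0.15 ± 0.070) and Gmps at 151, 137 and 117 CPM (0.09 ± 0.082). The background was 45.4% of all genes called (22.8% higher and 22.7% lower) and 44.8% not overlapping, against 5 of the 9 genes by either count. In this group replicate 3 was the highest library for Gart, Pfas, Adsl, Atic, Impdh1 and Impdh2 and the lowest for Ppat, Paics and Gmps. Without it, Gart (-0.23) was called lower and Gmps (0.18) higher in addition, and Adsl (0.23), Paics (0.36), Atic (-0.49), Impdh1 (-0.55) and Ppat (-0.17) kept their calls. The share of all genes called without this replicate is not given here. Correcting for GC content and length moved Impdh1 from -0.40 to -0.12 and Ppat from -0.22 to -0.34 with their calls kept, and brought Pfas (0.26) past the threshold. The call of Ppat was lost without HT-DNA replicate 3.

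Aspartate added to HT-DNA+AOA again lowered Adsl, Pfas and Impdh2, and it raised Ppat and Atic. Adsl was at 97.4, 96.2 and 96.9 CPM in HT-DNA+AOA+Asp, with no overlap (log2 fold change -0.70 ± 0.074, adjusted p = 4.68e-07). Pfas was at 73.4, 82.0 and 74.5 CPM (log2 fold change -0.35 ± 0.071, adjusted p = 0.000526). Impdh2 was at 304, 297 and 296 CPM, below even the lowest HT-DNA+AOA library (log2 fold change -0.33 ± 0.093, adjusted p = 0.00727). Without HT-DNA+AOA replicate 3 its value was -0.18, and corrected for GC content and length it was also -0.18, called under both. Under that correction Pfas stood at -0.53.

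Ppat was at 100.4, 95.0 and 98.8 CPM in HT-DNA+AOA+Asp (log2 fold change 0.22 ± 0.067, adjusted p = 0.0103). Atic was at 280.3, 273 and 264 CPM (log2 fold change 0.22 ± 0.071, adjusted p = 0.0171), with its lowest library just above the highest HT-DNA+AOA library. Gart was at 145, 139 and 135 CPM and, without overlap, missed the threshold (log2 fold change -0.16 ± 0.070, adjusted p = 0.0738). Paics at 207, 205 and 208 CPM, Impdh1 at 135, 126 and 129 CPM and Gmps at 134, 136 and 143 CPM lay within the ranges of the HT-DNA+AOA libraries. Of all genes, 47.7% were called (23.7% higher and 23.9% lower) and 48.8% did not overlap, against 5 and 6 of the 9 genes. Ppat was no longer called once corrected for GC content and length (0.03), whereas Atic was lost without HT-DNA+AOA replicate 1 or 2 or HT-DNA+AOA+Asp replicate 1. The same correction called Gmps lower (-0.41) where the uncorrected value was 0.03 ± 0.082. It also called Gart lower (-0.17) and Impdh1 higher (0.15, uncorrected 0.03 ± 0.094).

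HT-DNA+AOA+Asp was also set against HT-DNA alone, with which it shares the DNA but not AOA and aspartate. Gart (log2 fold change -0.31 ± 0.070), Pfas (-0.24 ± 0.071), Adsl (-0.37 ± 0.074), Atic (-0.18 ± 0.070), Impdh1 (-0.38 ± 0.094) and Impdh2 (-0.31 ± 0.093) were lower, with adjusted p from 0.000710 to 0.0422. Paics was higher (0.37 ± 0.070, adjusted p = 0.000521). Ppat (0.01 ± 0.067) and Gmps (0.11 ± 0.081) were not called. For 7 of the 9 genes the groups did not overlap, against 61.1% of all genes, and 46.6% of all genes were called (23.2% higher and 23.5% lower). Each of the 7 genes that were called lay nearer to its Mock level in HT-DNA+AOA+Asp than in HT-DNA. This comparison shares its HT-DNA libraries with that of HT-DNA with Mock, so the opposite signs are not independent. The call of Atic was lost when any of the 6 libraries was left out, that of Pfas without HT-DNA replicate 3 or HT-DNA+AOA+Asp replicate 1, and that of Impdh2 without HT-DNA replicate 1. Correcting for GC content and length took Impdh1 to 0.03 and Impdh2 to -0.11, neither then called, took Gart to -0.18 with its call kept, and called Ppat (-0.32) and Gmps (-0.43) lower. With library totals Atic (-0.13) was not called.

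Whether AOA acted differently with and without HT-DNA was tested by the difference between the effects (HT-DNA+AOA over HT-DNA, minus AOA over Mock). The difference passed the test for 7 of the 9 genes, against 15.5% of all genes (7.23% higher and 8.26% lower). It was negative for Atic (-0.51 ± 0.0997, adjusted p = 0.00306), Impdh1 (-0.49 ± 0.133, adjusted p = 0.0206), Impdh2 (-0.46 ± 0.131, adjusted p = 0.0256), Adsl (-0.37 ± 0.104, adjusted p = 0.0248), Gart (-0.36 ± 0.099, adjusted p = 0.0217) and Ppat (-0.36 ± 0.095, adjusted p = 0.0185). It was positive for Paics (0.30 ± 0.099, adjusted p = 0.0476). For Pfas (-0.14 ± 0.1004) and Gmps (-0.06 ± 0.115) it did not pass. The difference shares its Mock and HT-DNA libraries with the comparison of HT-DNA with Mock, so the signs of both are not independent.

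The kind of difference varied from gene to gene. Adsl was raised by AOA both without and with HT-DNA, by less with it. Atic and Impdh1 had log2 fold changes of 0.12 and 0.09 with AOA alone, not called, and of -0.40 each with HT-DNA present. Impdh2 was raised by AOA alone (0.48) and had a value of 0.02 with HT-DNA, where its level in HT-DNA alone was 371 CPM. Paics had no call with AOA alone and was raised where HT-DNA had lowered it.

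**Figure D3:**
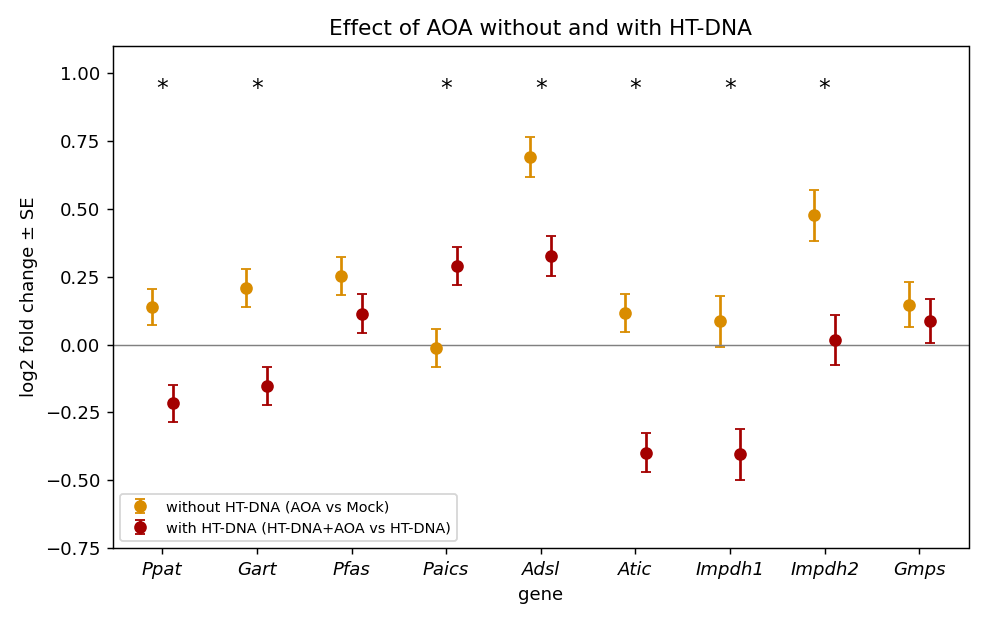
Log2 fold change with AOA for the 9 genes (horizontal axis), without HT-DNA (orange, AOA over Mock) and with HT-DNA (red, HT-DNA+AOA over HT-DNA), with bars of 1 SE. Asterisks mark genes for which the difference between both effects has an adjusted p under 0.05. Red lies below orange for every gene but Paics.

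The count of 7 rested on single libraries more than the other counts did. It fell to 2 without Mock replicate 1, to 3 without Mock replicate 3, to 2 without AOA replicate 2, to 2 without HT-DNA replicate 1, to 4 without HT-DNA replicate 3 and to 2 without HT-DNA+AOA replicate 2, and it stayed at 7 without HT-DNA+AOA replicate 3. The difference of Atic was called under each of these, and that of Paics was called under none of the omissions but those of HT-DNA replicate 2 and HT-DNA+AOA replicate 3. With library totals the difference of Ppat was -0.26 and was not called (adjusted p = 0.0885). Correcting for GC content and length moved Gmps to -0.51, now called, Impdh1 to -0.19, Impdh2 to -0.27, Gart to -0.22 and Ppat to -0.58. With the compared libraries alone in the fit, the difference was called for 1 gene.

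Whether aspartate acted differently on AOA-treated cells with and without HT-DNA was tested in the same way. None of the 9 genes passed by edgeR, against 1.04% of all genes. At an unadjusted p under 0.05 there were 2, Ppat (0.33 ± 0.095, adjusted p = 0.119) and Atic (0.28 ± 0.0997, adjusted p = 0.244), and DESeq2 called 1, Ppat. For Adsl the difference was -0.01 ± 0.104. Atic was called without HT-DNA+AOA replicate 3 (0.37), and Ppat without HT-DNA+AOA replicate 1 (0.37).

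Paics was the only one of the 9 genes lower with HT-DNA. Ppat and Paics lie head to head on chromosome 5, with Ppat on the minus strand (chr5:76913249-76951578) and Paics on the plus strand (chr5:76951307-76967509; GENCODE vM21, GRCm38), and they share 272 exonic bases, 6.15% of those of Ppat and 8.67% of those of Paics. In Mock, Ppat stood at 79.3 ± 4.04 CPM and Paics at 204 ± 2.87 CPM. With HT-DNA the former was at 97.5 ± 3.29 CPM and the latter at 159.9 ± 8.82 CPM, so that the neighbours went in opposite directions. In AOA+Asp, Paics had its highest libraries while Ppat stayed at 79.9 to 82.5 CPM. In HT-DNA+AOA+Asp, Ppat was at its HT-DNA level and Paics at its Mock level. Whether the counting used strand is not given in the sources used here, so reads from the shared bases could have been given to either gene.

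**Figure D4:**
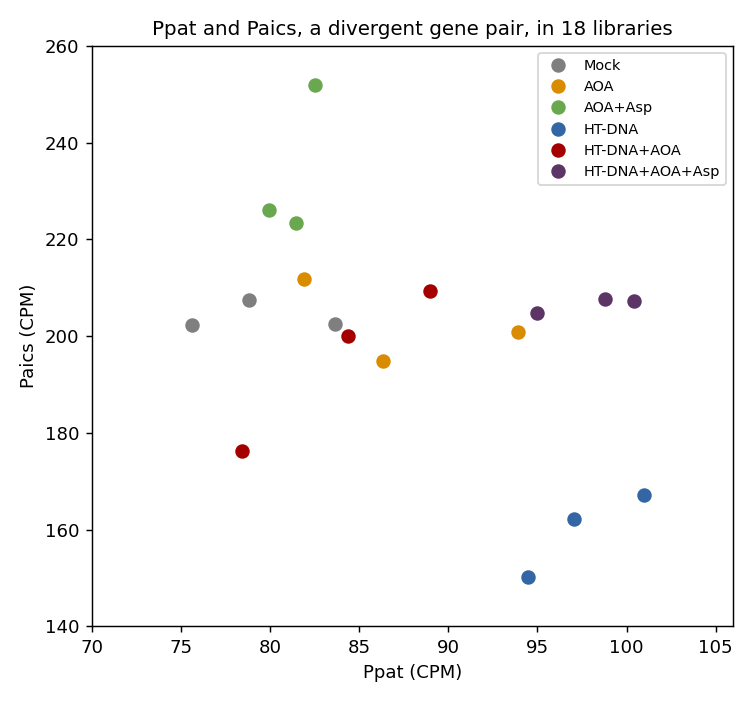
CPM of Ppat (horizontal axis) and of Paics (vertical axis) in the 18 libraries, colored by group (neither axis starts at 0). HT-DNA libraries lie at the lower right with high Ppat and low Paics, AOA+Asp libraries at the upper left, and HT-DNA+AOA+Asp libraries at the right with Paics near 207 CPM.

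Over the 6 group means of log2 CPM, which share library scaling, the level of Paics ran against the mean of the 9 genes (Pearson r = -0.74), a mean it is itself part of. The closest to that mean were Impdh2 (r = 0.96), Gart (r = 0.95), Pfas (r = 0.90) and Adsl (r = 0.86). Among pairs, Adsl and Impdh2 went together most closely (r = 0.95), followed by Atic with Impdh1 (r = 0.91) and Gart with Pfas (r = 0.90), and Paics and Impdh1 were the most opposed (r = -0.93). With 6 points these values are a description. They were taken without the correction for GC content and length, under which the HT-DNA rise of Impdh1 went from 0.47 to 0.13. Of all genes tested, the 5 whose group means were most like the mean of the 9 were 1810009A15Rik (r = 0.995), Slc19a1 (r = 0.993), Mrpl3 (r = 0.993), Smco4 (r = 0.992) and Wdr73 (r = 0.992). Slc19a1 encodes the reduced folate carrier and Mrpl3 a protein of the mitochondrial ribosome.

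Read sharing with other loci was looked up in GENCODE vM21. Of the 31-base sequences of Impdh2, 43.7% also occur in other genes, nearly all in the pseudogene Impdh2-ps, which had 17 counts in all 18 libraries together. Gart shares 17.2% with the antisense gene Gm15964, which had 281 counts. Paics shares 16.7%, in part with Ppat. Impdh1 shared none, and the other 5 genes shared 1.38% to 6.52%. Levels of Impdh2, Gart, Paics and Ppat are uncertain to the extent that the counting split such reads.

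Genes that border on the route were taken as lists. The counts of called genes in each list stand against 22.5% higher and 23.2% lower over all genes tested with AOA, and against 24.2% higher and 24.01% lower with HT-DNA. The medians of log2 fold change stand against 0.02 with AOA and -0.01 with HT-DNA. Around the route, the 2 adenylosuccinate synthetases of the AMP branch differed in level and response (named Adssl1 and Adss in the table). Adssl1 was raised by AOA from 29.7, 34.1 and 34.3 CPM in Mock to 44.1, 43.5 and 45.7 CPM (log2 fold change 0.44 ± 0.088, adjusted p = 0.000439) and was lowered again by aspartate (-0.41). Adss, at 135, 141 and 141 CPM in Mock and 143, 143 and 153 CPM in AOA, was not called with AOA (0.07 ± 0.080) and was just past the threshold with aspartate (0.20, adjusted p = 0.0490). Corrected for GC content and length, Adss was called with AOA (0.14) and stood at 0.0036 with aspartate, not called. The median of the pair was 0.26 with AOA and 0.23 with HT-DNA. Of the 5 genes of PRPP supply, 3 rose and 1 fell with AOA, and 3 rose and 1 fell with HT-DNA (medians 0.29 and 0.19). These were not all the same genes, and the one that fell differed. Prps1, a PRPP synthetase, rose from 76.4, 78.1 and 75.1 CPM in Mock to 126, 123 and 118 CPM in AOA (log2 fold change 0.68 ± 0.065, adjusted p = 1.43e-07), and was called with HT-DNA as well (0.21), though not with library totals (0.10). Prps2 was not called with AOA (-0.04 ± 0.133) and fell with HT-DNA (-0.37), a call that was lost on correction for GC content and length (-0.10).

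Of the 9 genes that supply one-carbon units, 5 rose and 1 fell with AOA (median log2 fold change 0.21), and 4 rose and 1 fell with HT-DNA (median 0.11). Aldh1l2, a mitochondrial enzyme that oxidizes formyl-folate, was at 141, 133 and 135 CPM in Mock, at 304, 280.1 and 245 CPM in AOA and at 64.9, 74.5 and 60.2 CPM in HT-DNA. It rose 2.03-fold with AOA (adjusted p = 5.26e-06) and fell to 0.49 of its Mock level with HT-DNA (adjusted p = 1.31e-05). Of the 7 salvage genes, 5 were higher and 1 lower with HT-DNA (median 0.28), and 2 were higher and 1 lower with AOA (median 0.16). Aprt, which salvages adenine, rose 1.75-fold with HT-DNA (log2 fold change 0.81 ± 0.123, adjusted p = 6.09e-05), Ada (adenosine deaminase) rose with both (0.44 with AOA and 0.52 with HT-DNA), and Dck (deoxycytidine kinase) fell with both (-0.52 and -0.29).

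Of the 7 nucleotide kinases, 6 were higher and 1 lower with HT-DNA (median 0.48), and 3 were higher and 2 lower with AOA (median 0.17). Guk1, the guanylate kinase that takes GMP onward, rose from 24.6, 23.0 and 23.9 CPM in Mock to 32.5, 37.7 and 38.0 CPM in AOA (log2 fold change 0.60 ± 0.151, adjusted p = 0.00337) and rose with HT-DNA too (0.68 ± 0.150). Ak4, a mitochondrial adenylate kinase, fell with AOA (-0.41) and rose with HT-DNA (0.49). For breakdown and interconversion, 7 of 9 listed genes were tested, Ampd1 and Nt5e being filtered out. With HT-DNA 3 of the 7 fell and none rose, and with AOA 2 rose and 1 fell (medians -0.18 and 0.16). Nt5c2, a nucleotidase that acts on IMP and GMP, fell from 37.5, 40.5 and 40.4 CPM in Mock to 18.9, 16.2 and 12.97 CPM in AOA (log2 fold change -1.30 ± 0.131, adjusted p = 2.75e-07) and rose again with aspartate (0.96). Xdh, which makes uric acid, fell with HT-DNA (-0.38) and was not called with AOA (0.20 ± 0.083).

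The pyrimidine genes Cad, Dhodh and Umps, whose route also consumes aspartate, all rose with AOA, by 0.39, 0.28 and 0.70, and all fell when aspartate was added to AOA, by values of -0.38, -0.25 and -0.64. The fall of Dhodh was not called with library totals (-0.17) or with the correction for GC content and length (-0.06). All 3 rose with HT-DNA (0.32, 0.61 and 0.51), and the medians were 0.39 with AOA and 0.51 with HT-DNA. Umps, the enzyme that completes UMP, was at 286, 290.3 and 267 CPM in Mock and at 469, 461 and 443 CPM in AOA. Of the regulators, Myc was at 139, 144 and 135 CPM in Mock and at 575, 521 and 516 CPM in AOA, a 3.86-fold rise (log2 fold change 1.95 ± 0.067, adjusted p = 1.06e-13). Aspartate brought Myc to 149, 161 and 143 CPM. Myc was also called higher with HT-DNA (0.33) and in HT-DNA+AOA over HT-DNA (1.89), and lower when aspartate was added to HT-DNA+AOA (-1.81). Atf4, the transcription factor of the amino acid response, was not called with AOA (0.16 ± 0.080) and was higher with HT-DNA (0.21 ± 0.080), and the list also holds Mycn, which was filtered out, and Max, which was at -0.11 with AOA, not called, and was raised by HT-DNA (0.19). The median of the 3 tested regulators was 0.16 with AOA and 0.21 with HT-DNA.

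The counts of the lists moved with the scaling. With library totals, one-carbon supply had 4 genes higher and 3 lower with AOA, PRPP supply had none higher and 1 lower with HT-DNA, and Dhodh was not called with AOA (0.15). Cad then stood at 0.26 with AOA and 0.21 with HT-DNA, called in both. Adssl1 (0.15), Atf4 (0.09) and Max were not called with HT-DNA, and Max was called lower with AOA. With the correction for GC content and length, nucleotide kinases had 4 higher and 1 lower with HT-DNA (median log2 fold change 0.18 in place of 0.48) and salvage 1 higher and 1 lower with AOA. For single genes the same correction turned the HT-DNA value of Atf4 to -0.11, called lower. It turned those of Adssl1 (0.26 to -0.09) and Nt5c2 (-0.32 to 0.16) to the other sign without a call. Myc (0.11), Dck (-0.08) and Max were no longer called with HT-DNA, while Adss (0.37) was. The correction reduced the HT-DNA values of Aprt to 0.25, Guk1 to 0.18, Ada to 0.21, Dhodh to 0.28 and Aldh1l2 to -0.67, all still called. With AOA it reduced Guk1 to 0.40, Ada to 0.29 and Dhodh to 0.18 and called Xdh higher (0.25), and with aspartate it reduced Adssl1 to -0.20. With AOA, Myc (1.87), Umps (0.72), Prps1 (0.62), Aldh1l2 (1.15) and Nt5c2 (-1.12) were called in the same direction under it.

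**Figure D5:**
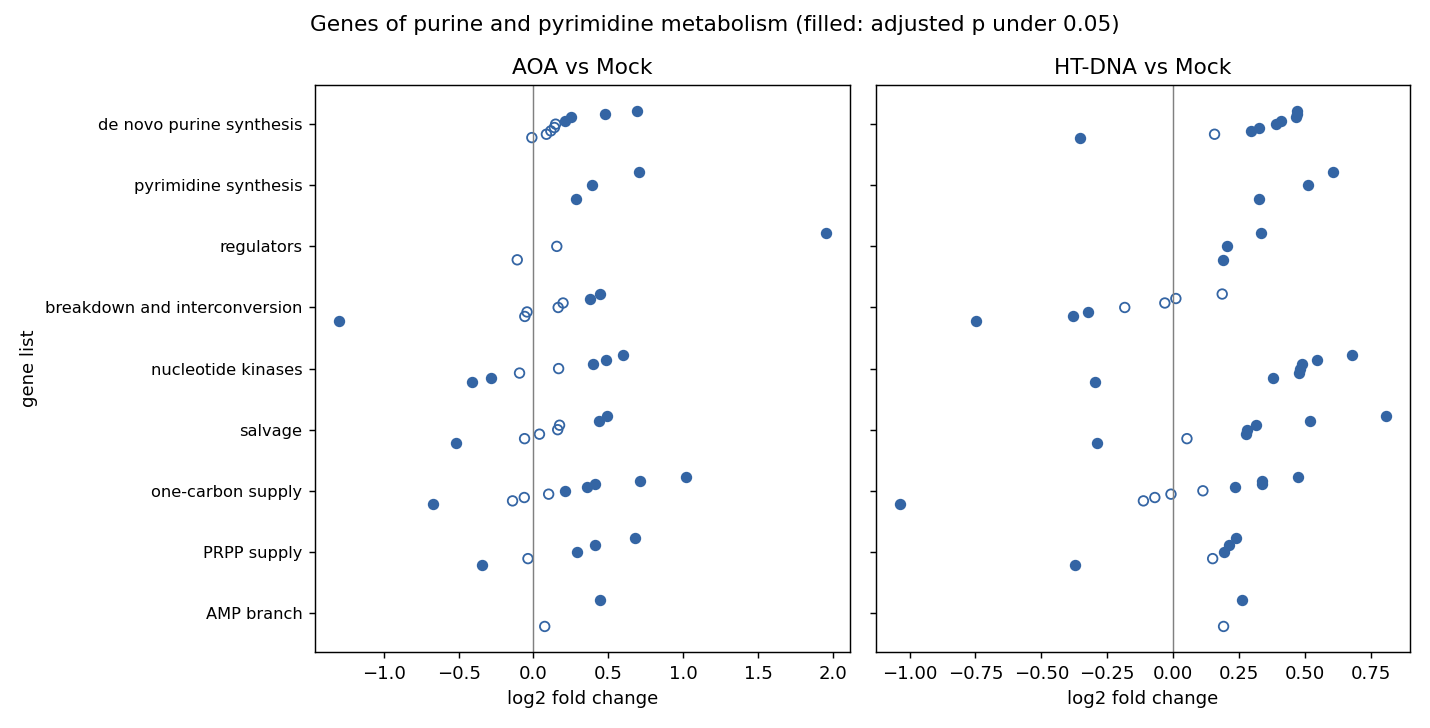
Log2 fold change (horizontal axis) of each tested gene of the related lists and of the 9 de novo purine synthesis genes (rows), for AOA over Mock (left) and HT-DNA over Mock (right). Filled points have an adjusted p under 0.05. The rightmost point on the left is Myc at 1.95, and the de novo purine row on the right holds 7 filled points above 0 and 1 below.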

How the data were processed

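RNA from 18 cultures of L929 cells, in 6 groups of 3 taken from the sample labels, was extracted with TRIzol and sequenced. Each value was deposited by the authors unnormalized and was read as an expected count, an estimate of the reads of a gene, because 11.6% of entries are fractional. The aligner, counter, strand setting and genome build are not given in the sources used here. The design provided for rounding of estimated counts, so the values were rounded to whole numbers first. The table's columns of group means were not used.

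The analysis used edgeR 4.0.16 (R 4.3.3). Its filterByExpr dropped low genes (count of 10, total of 15, groups of 3). A robust quasi-likelihood model took in all 18 libraries (17901580 to 24057322 counts, TMM factors 0.918 to 1.06). It gave 7 comparisons and 2 interactions, and p-values were adjusted by the Benjamini-Hochberg method over 14263 genes. A gene with an adjusted p under 0.05 was called. SE belong to log2 fold changes and were computed from the fold change and the F statistic of the quasi-likelihood test. SD belong to the 3 libraries of a group. Libraries were checked against markers and against each other (chi-square of counts), and the fits were tested on simulated data.

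The alternatives were RLE size factors, library totals, 2 other filters, a correction of each library's loess trend (span 0.3) on GC content and transcript length from GENCODE vM21, the compared libraries alone, the replicate number as a block, a minimum log2 fold change of 1, DESeq2 1.42.0 and each library left out in turn. The 9 genes and the lists of related genes were chosen with earlier results of these data known. All 9 genes are named, and of each list the gene called in most comparisons, those with the largest change with AOA and with HT-DNA among genes averaging at least 10 CPM, and Myc, Atf4, Adss and Cad. Max was named after its values were seen. Genes like the mean of the 9 were ranked by Pearson's r over 6 group means of log2 CPM among genes averaging at least 10 CPM.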

Additional observations from a re-analysis of the deposited data

Results flagged for a closer look

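The effect of AOA with HT-DNA differed from its effect without HT-DNA, by a test of the difference itself, for 7 of the 9 genes, against 15.5% of all genes tested, and for 2 to 7 of them when 1 library was left out. With the compared libraries alone in the fit, the test passed for 1 of the 9 genes. The difference in log2 fold change was -0.51 for Atic, -0.49 for Impdh1, -0.46 for Impdh2, -0.37 for Adsl, -0.36 for Gart, -0.36 for Ppat and 0.30 for Paics (edgeR quasi-likelihood test with Benjamini-Hochberg adjustment over all genes). Groups of 3 libraries are too small for a search for single outlying libraries by gap and range, and none was made.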

How the results depend on the processing

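A minimum log2 fold change of 1 in either direction left 0 called genes in all 7 comparisons and tests of differences that had any, by construction. Library totals gave 2 calls for AOA with Mock and 1 for AOA+Asp with Mock. The correction for GC content and length gave 1, the compared libraries alone 2 and DESeq2 2 for AOA+Asp with Mock, where the reported count is 0. The compared libraries alone gave 3 calls for HT-DNA+AOA with HT-DNA, 2 for HT-DNA+AOA+Asp with HT-DNA+AOA and 1 for the difference of the AOA effects, and DESeq2 gave 1 for the difference of the aspartate effects. Leaving out 1 library gave 2 to 7 calls for the difference of the AOA effects, 0 to 1 for that of the aspartate effects, 3 to 4 for AOA with Mock, 4 to 7 for HT-DNA+AOA with HT-DNA, 5 to 6 for HT-DNA+AOA+Asp with HT-DNA, and 8 each time for HT-DNA with Mock. The correction for GC content and length reversed Gmps in HT-DNA+AOA+Asp with HT-DNA+AOA (-0.41) and with HT-DNA (-0.43), and in the latter Ppat (-0.32) and Impdh1 (0.031). The causes were not tested. For 22 pairs of gene and comparison that were not called, those of Gmps and Ppat among them, the sign differed in at least 1 setting.

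The replicate numbers were not taken to pair the libraries, by a rule that every same-numbered pair should correlate above 0.1. Of 45 same-numbered pairs 7 did, against 3 of 90 others (medians 0.00814 and 0.00798). The rule asks this of every pair, so it cannot decide whether some same-numbered libraries shared a batch. With the replicate number as a block, the difference of the AOA effects had 6 calls and HT-DNA+AOA+Asp with HT-DNA 6, each 7 without the block, and the other counts did not move. With 3 cultures a group, no aspartate-alone group and an unknown strand setting, small changes of genes with extreme GC content and of Ppat and Paics are the least certain.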
